A study of Homo sapiens with 12 samples.

Results

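Messenger RNA levels of the enzymes that make cholesterol and fatty acids, and of the proteins that control this synthesis or move cholesterol, were described in human cancer cells with and without hypoxia. The set held 36 genes of the 25369 genes counted, taken by symbol from a list of named pathway genes. It was divided by role into 8 enzymes that consume molecular oxygen, 21 other enzymes and 7 regulators and transport proteins. By pathway, 17 of the enzymes belong to sterol synthesis and 12 to fatty acid synthesis. The cells were RKO (colon carcinoma), A549 (lung adenocarcinoma) and H460 (large cell lung carcinoma), all established lines with no genetic modification named in the labels. Each line was kept in normoxia or moved to 1% O2 for 24 h, and poly(A)+ RNA was sequenced from 2 independent biological replicates of each of the 6 groups. RKO and A549 grew in DMEM and H460 in RPMI, both with serum, so that differences of H460 from the other lines and differences of medium cannot be told apart.

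The 12 libraries held 27350424 to 41757584 counted reads. The hypoxia markers CA9, NDRG1 and VEGFA rose in all 3 lines, with CA9, a carbonic anhydrase, higher by 4.45 (RKO), 5.65 (A549) and 6.82 (H460) on the log2 scale. The epithelial keratins KRT8 and KRT18 were read in all 3 lines, with KRT8 at 8.95 (RKO), 1654 (A549) and 686 (H460) CPM in normoxia. KRT18 fell in RKO hypoxia (-1.05, adjusted p = 0.000521). EPCAM read 5.19, 16.65 and 0.442 CPM in RKO, A549 and H460 normoxia, and CDH1 0.0857, 69.6 and 0.442 CPM. Most tissue markers were sparse. In RKO normoxia CDX2 read 16.8 CPM (reads scaled to a common library total, with TMM factors) while CDX1, VIL1 and KRT20 had no reads. The lung markers SFTPB and SFTPC stayed under 0.11 CPM in both lung lines, whereas NAPSA read 3.67 CPM in A549 and 0.507 CPM in H460 normoxia. NKX2-1 was under 0.08 CPM in normoxia and reached 3.23 CPM in H460 hypoxia. Markers of leukocytes and endothelium (PTPRC, PECAM1) were under 0.09 CPM in all groups, and the collagen gene COL1A1, also a fibroblast marker, read 66.6 ± 26.0 CPM in A549 normoxia and 282 ± 212 CPM in hypoxia (SD, n = 2). COL1A1 also rose in RKO, from 0.436 to 1.96 CPM (2.15, adjusted p = 0.00223), and the part of these markers in the results was not tested. For the 36 genes the A549 normoxia replicates stood farther apart than others. Replicate 1 exceeded replicate 2 for 28 of 36 genes, and the median log2 ratio was 0.22, against -0.06 in RKO and 0.09 in H460 normoxia. Without regard to sign, the median log2 difference in A549 normoxia was 0.221, against 0.245 over all tested genes, so its size was not particular to the set. The share of all genes higher in replicate 1 was not computed.

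Cholesterol is built from acetyl-CoA through the mevalonate pathway to squalene, which is then oxidized, closed into lanosterol and trimmed to cholesterol. Squalene epoxidation, the demethylations of lanosterol and the late desaturation by SC5D consume molecular oxygen, as do the desaturases of fatty acids, whereas carbon chain building by FASN and elongation do not. Many of the enzyme genes are under common control of the SREBP transcription factors. SCAP carries these factors from the endoplasmic reticulum to the Golgi, and INSIG proteins hold them back when sterols are plentiful.

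A gene was called when the edgeR quasi-likelihood F test gave a Benjamini-Hochberg adjusted p under 0.1 and the fold change exceeded 1.5. In RKO, 19 of the 35 genes tested rose and 3 fell, against 18.8% of all tested genes higher and 15.1% lower. In A549 only INSIG2 of 36 genes rose and 0 fell, where 2.22% of all genes were higher and 0.456% lower. DESeq2 called 2 genes higher in A549, and INSIG1, ABCA1, STARD4 and SC5D had estimates of 0.51 to 0.82 without passing edgeR's test. At an unadjusted p under 0.05, 5 genes were higher and 1 was lower in A549, but the share of all genes at that p was not computed. In H460, 12 genes rose and 5 fell, against 24.6% and 27.3% of all genes, so that the share that rose lay above the background and the share that fell lay below it. The H460 counts depended on scaling. Scaling by library size alone lowered the median of all genes by 0.35 on the log2 scale and gave 9 genes higher and 12 lower. The shares of all genes called under that scaling were not computed, so these 2 counts have no background beside them. The remaining gene, ELOVL5, was not tested in RKO, where it had 9 to 20 reads per library.

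**Figure D1:**
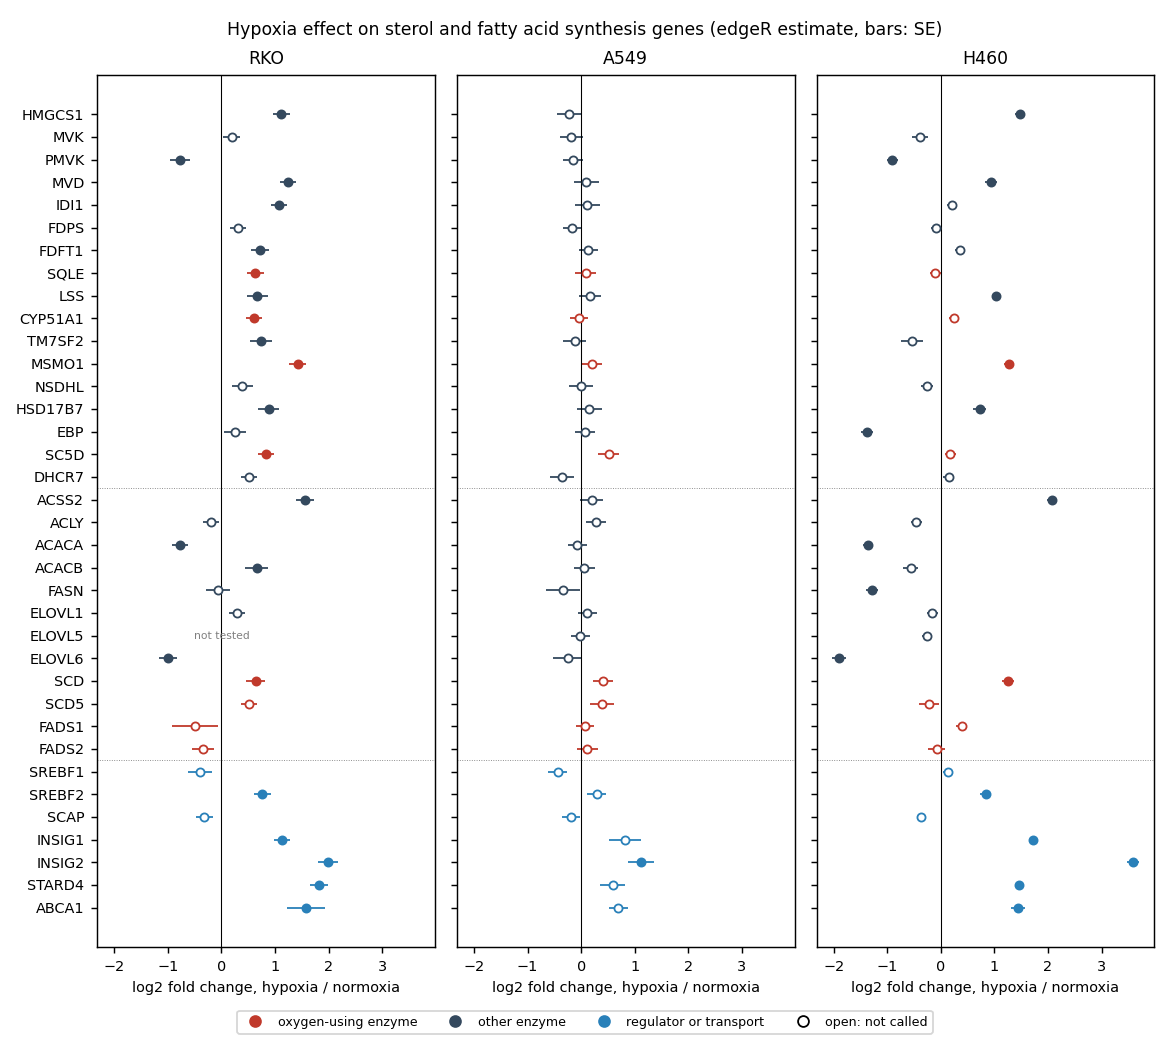
Log2 fold change of hypoxia over normoxia for the 36 genes (rows, by pathway position) in RKO, A549 and H460 (panels), with the standard error as bars and colors for role; filled points were called and open points were not. INSIG2 is the gene farthest to the right in H460, at 3.59, and ELOVL6 the farthest to the left, at -1.91, while most A549 points lie near 0, apart from INSIG2 at 1.12.

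All 12 genes that rose in H460 also rose in RKO, where they made up 63.2% of the genes that rose. These were MSMO1, SCD, HMGCS1, MVD, LSS, HSD17B7, ACSS2, INSIG1, INSIG2, SREBF2, STARD4 and ABCA1. Over all genes tested in both lines, 36.5% of those higher in H460 were higher in RKO and 50.3% of those higher in RKO were higher in H460. PMVK, ACACA and ELOVL6 fell in both lines, all 3 of the RKO calls and 60.0% of the H460 calls, and EBP and FASN fell in H460. Over all genes these shares were 59.2% and 34.5%. No gene of the set was called in opposite directions in RKO and H460, as 2.83% of all genes were. INSIG2 was the one gene higher in all 3 lines, a pattern of 0.977% of genes tested in each, and none was lower in all 3, as 0.109% were. The genes called in no line were the 12 genes SCD5, FADS1, FADS2, MVK, FDPS, NSDHL, DHCR7, ACLY, ELOVL1, ELOVL5, SREBF1 and SCAP. Under scaling by library size alone MVK, NSDHL, ACLY, ELOVL5 and SCAP were lower in H460, as were TM7SF2 and ACACB, and SCD5 and DHCR7 were higher in RKO.

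Promoter sequences of 33 of the 36 genes were found in RefSeq (GRCh38.p14; 250 bases before to 50 after the start site), and 5 are shown as examples, chosen after their values were seen, among the genes that rose in RKO and H460 and carry the letters searched for. Capitals mark the letters CCAAT (the NF-Y box), TCACNCCAC (a sterol regulatory element), and ACGTG or GCGTG (the core of hypoxia response elements), read on either strand, and each run is given 5′ to 3′ on the strand of the gene and ends at the base before the start site. The INSIG2 stretch (chr2:118088271-118088470, plus strand) holds 1 ACGTG and 1 GCGTG, both on the opposite strand. The INSIG1 stretch (chr7:155297658-155297877, plus strand) holds both hypoxia cores and a CCAAT box.
INSIG2: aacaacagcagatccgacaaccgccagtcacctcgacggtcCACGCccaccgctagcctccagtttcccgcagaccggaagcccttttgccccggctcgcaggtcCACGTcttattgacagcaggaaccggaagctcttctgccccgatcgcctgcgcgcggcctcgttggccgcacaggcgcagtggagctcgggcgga
INSIG1: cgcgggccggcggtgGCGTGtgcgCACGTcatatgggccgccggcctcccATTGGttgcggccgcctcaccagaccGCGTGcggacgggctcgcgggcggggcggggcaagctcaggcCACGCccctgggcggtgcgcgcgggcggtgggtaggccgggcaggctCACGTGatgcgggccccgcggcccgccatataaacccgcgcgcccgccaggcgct
SREBF2 (chr22:41832945-41833104, plus strand), which encodes the main activator of sterol synthesis, was the only gene of the 33 with the sterol element letters, here overlapping a reversed GCGTG.
SREBF2: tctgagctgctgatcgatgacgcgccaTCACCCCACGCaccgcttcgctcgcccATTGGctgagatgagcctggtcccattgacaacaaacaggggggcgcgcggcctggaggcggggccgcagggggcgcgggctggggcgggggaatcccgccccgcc
MVD (chr16:88663092-88663271, minus strand) and MSMO1 (chr4:165327469-165327668, plus strand) each hold several CCAAT boxes.
MVD: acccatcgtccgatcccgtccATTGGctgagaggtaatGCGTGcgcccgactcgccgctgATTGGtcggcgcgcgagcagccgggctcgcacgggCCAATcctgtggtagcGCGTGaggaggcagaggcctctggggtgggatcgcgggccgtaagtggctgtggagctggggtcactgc
MSMO1: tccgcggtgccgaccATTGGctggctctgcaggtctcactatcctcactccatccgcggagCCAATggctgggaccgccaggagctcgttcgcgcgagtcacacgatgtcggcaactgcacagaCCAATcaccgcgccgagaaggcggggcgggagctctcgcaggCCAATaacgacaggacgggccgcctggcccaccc

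CCAAT was present in the promoters of 25 of the 33 genes (75.8%), against 42.7% of tested genes and 34.6% of all 35116 promoters in the table. GCGTG was present in 24 genes (72.7%, against 57.1% of tested genes and 36.5% of promoters) and ACGTG in 14 (42.4%, against 31.8% and 21.4%). The palindrome CACGTG, which contains ACGTG, was present in 6 genes (18.2%, against 12.4% and 7.26%), and TCACNCCAC in 1 (3.03%, against 1.45% and 1.128%). Genes with several start sites had more sequence in which to match, and a match describes letters, not binding.

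The 4 oxygen-using enzymes of sterol synthesis all rose in RKO, where 18.8% of all genes were higher. In H460 only MSMO1 of the 4 rose, a share near the 24.6% of all genes that were higher there. MSMO1, the sterol oxidase that removes methyl groups after lanosterol (GRCh37 chr4:166248817-166264314), read 117 and 119 CPM in the RKO normoxia libraries and 336 and 298 CPM in hypoxia, a log2 change of 1.42 ± 0.15 (SE; adjusted p = 0.000166). In H460 it read 35.2 and 32.2 CPM in normoxia against 82.6 and 80.7 CPM in hypoxia, a change of 1.28 ± 0.09 (adjusted p = 1.86e-07). The RKO and H460 libraries of both conditions were far apart, whereas in A549 the 34.1 and 30.1 CPM of normoxia lay close to the 38.5 and 35.2 CPM of hypoxia.

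SQLE, the squalene epoxidase and a rate-limiting step after the mevalonate pathway, read 191 and 214 CPM in RKO normoxia and 294 and 333 CPM in hypoxia (0.63 ± 0.16, adjusted p = 0.00946). In A549 its libraries overlapped, with 76.4 and 60.5 CPM in normoxia and 80.6 and 64.4 CPM in hypoxia. In H460 they overlapped as well, with 47.7 and 43.2 against 40.8 and 43.8 CPM. CYP51A1, the cytochrome P450 that demethylates lanosterol (GRCh37 chr7:91741462-91764059), read 247 and 237 CPM in RKO normoxia and 360 and 374 CPM in hypoxia (0.60 ± 0.15, adjusted p = 0.00965). Both rises were near the fold threshold, and leaving out single RKO libraries took SQLE to 0.56 (without normoxia replicate 1 or without hypoxia replicate 2) and CYP51A1 to 0.57 (without normoxia replicate 2), below the threshold. CYP51A1 read 78.7 and 85.9 CPM in A549 normoxia, within which the 83.7 CPM of 1 hypoxia library fell, the other being 76.2 CPM. In H460 it moved from 122 and 119 CPM to 133 and 154 CPM, which passed the adjusted p (0.0298) but not the fold threshold.

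SC5D, the sterol desaturase near the end of the pathway (GRCh37 chr11:121163387-121184119), read 67.7 and 61.9 CPM in RKO normoxia and 115 and 116 CPM in hypoxia (0.83 ± 0.15, adjusted p = 0.00172). In A549 its hypoxia libraries, 37.0 and 43.5 CPM, were both above the normoxia libraries, 29.1 and 27.4 CPM, yet the change of 0.51 ± 0.20 did not pass (adjusted p = 0.245). In H460 the values were 31.4 and 30.7 CPM against 32.7 and 37.4 CPM.

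Of the 4 fatty acid desaturases in the set, SCD rose in RKO and H460 and the others were called in no line. These shares lay near the 18.8% (RKO) and 24.6% (H460) of all genes that were higher. FADS3, outside the set, is given with the other lists. SCD, the stearoyl-CoA desaturase that makes oleate (GRCh37 chr10:102106771-102124588), read 1020 and 1211 CPM in RKO normoxia and 1748 and 1721 CPM in hypoxia (0.64 ± 0.17, adjusted p = 0.0152). The H460 rise was larger, from 1133 and 933 CPM to 2474 and 2443 CPM (1.25 ± 0.12, adjusted p = 1.44e-06). In A549 both hypoxia libraries, 1095 and 1334 CPM, were above the 947 and 891 CPM of normoxia, with a change of 0.40 ± 0.18 that did not pass. The RKO call was lost without normoxia replicate 1 (0.52, adjusted p = 0.179).

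SCD5, the second stearoyl-CoA desaturase, read 60.5 and 60.0 CPM in RKO normoxia and 88.2 and 83.0 CPM in hypoxia, which passed the adjusted p (0.0200) but not the fold threshold (0.51 ± 0.15). In A549 it moved from 17.2 and 12.7 CPM to 19.6 and 19.7 CPM, and in H460 from 6.74 and 4.81 CPM to 5.06 and 4.81 CPM. Neither change passed, and by RPKM, which divides by gene length, SCD5 was at most 0.0755 of SCD in any library. FADS1 and FADS2, the desaturases that make polyunsaturated fatty acids, lie head to head on chromosome 11 with overlapping ends on opposite strands (GRCh37 chr11:61567096-61584529 and chr11:61583674-61634826). FADS1 was almost silent in RKO, with 0.699 and 1.18 CPM in normoxia and 0.719 and 0.620 CPM in hypoxia. In A549 it read 595 and 548.97 against 605 and 599 CPM. In H460 it read 320 and 298 against 372 and 439 CPM (0.39 ± 0.10). Among the fatty acid desaturases of the set, FADS1 was the only one besides SCD whose H460 change passed the adjusted p (0.00453), under the fold threshold. FADS2 overlapped between conditions in every line, with 26.2 and 33.3 against 27.1 and 19.7 CPM in RKO. In A549 it read 644 and 490 against 642 and 583 CPM, and in H460 129 and 112 against 89.8 and 137 CPM.

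**Figure D2:**
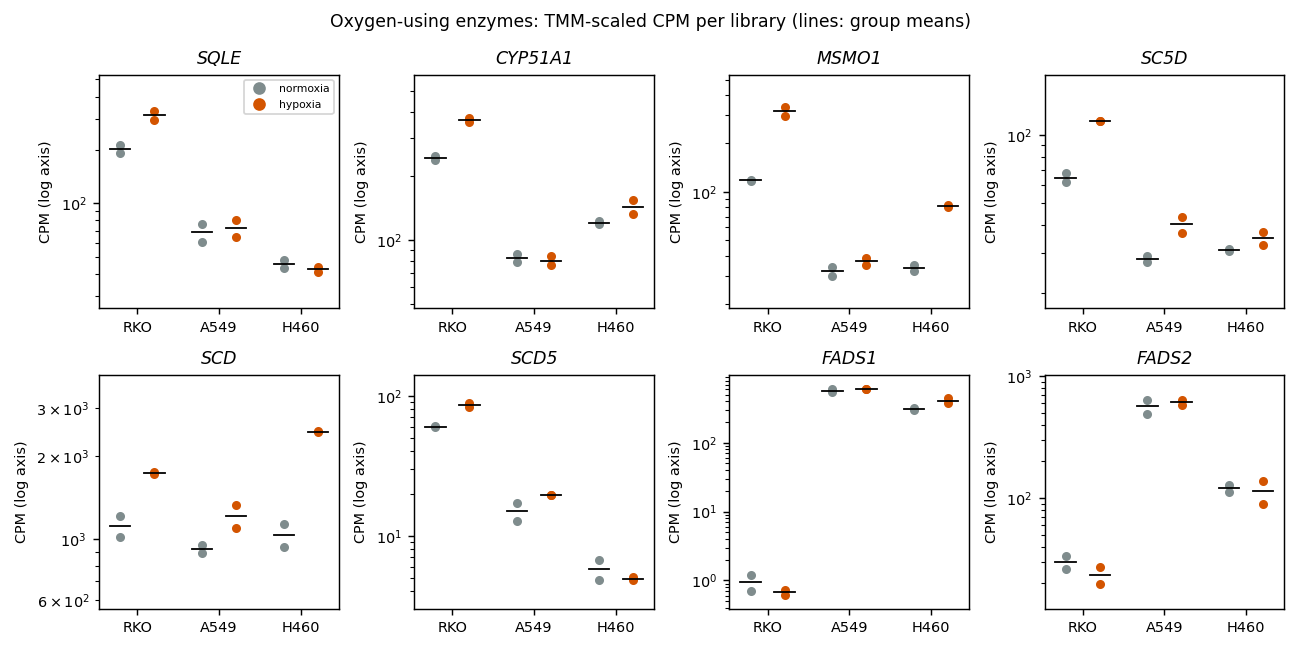
TMM-scaled CPM (log axes, each panel on its own scale) of the 8 oxygen-using enzymes in every library, grey for normoxia and orange for hypoxia, with lines at the means of 2 replicates. MSMO1, SCD, CYP51A1 and SC5D separate the conditions in RKO and H460, although CYP51A1 and SC5D were not called in H460. FADS1 lies near 1 CPM in RKO against 298 CPM or more in the other lines.

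Oxygen-using and other enzymes were then compared within each line, as a description with no test, since genes are not replicates. The median log2 fold change of the oxygen-using enzymes reached 0.62 in RKO, 0.16 in A549 and 0.21 in H460. The H460 value turned to -0.14 when scaled by library size alone, which shifted all genes by a median of -0.35. For the other enzymes the medians with TMM factors were 0.45, 0 and -0.26, and for all tested genes 0.01, -0.01 and -0.04. The difference of these medians, which a common scaling factor does not shift, came to 0.16 (RKO), 0.16 (A549) and 0.48 (H460). Its spread between replicate libraries was 0.07, 0.09 and 0.13 (SD), which does not measure the spread between genes. Single oxygen-using enzymes ranged from -0.49 to 1.42 (RKO), -0.04 to 0.51 (A549) and -0.22 to 1.28 (H460). The other enzymes ranged from -1.005 to 1.56, -0.36 to 0.27 and -1.91 to 2.08. In numbers of calls, 5 of 8 oxygen-using enzymes rose and 0 fell in RKO, against 9 higher and 3 lower of 20 other enzymes, where 18.8% of all genes were higher and 15.1% lower. In H460, 2 of 8 rose and 0 fell, against 5 higher and 5 lower of 21, and apart from the absence of falls among the 8 these shares lay near the 24.6% and 27.3% of all genes. None of the enzymes that fell in any line by edgeR's calls used oxygen. At an unadjusted p under 0.05 the count of oxygen-using enzymes lower was also 0 in each line, without a share of all genes to set beside it.

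Within the pathways the difference was small among sterol enzymes and larger among fatty acid enzymes in A549 and H460. Among sterol enzymes the 4 that use oxygen exceeded the other 13 by a median of 0.06 in RKO, 0.14 in A549 and 0.07 in H460. Among fatty acid enzymes the 4 desaturases exceeded the other enzymes by 0.14, 0.23 and 0.67. In H460 ACACA, FASN and ELOVL6 fell among the other enzymes and SCD rose among the desaturases. The medians of the 4 desaturases were 0.08, 0.25 and 0.16. In RKO the sterol enzymes had a median of 0.67 and the fatty acid enzymes -0.06. The sterol enzymes exceeded the fatty acid enzymes by 0.73 in RKO and 0.42 in H460, with -0.02 in A549.

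**Figure D3:**
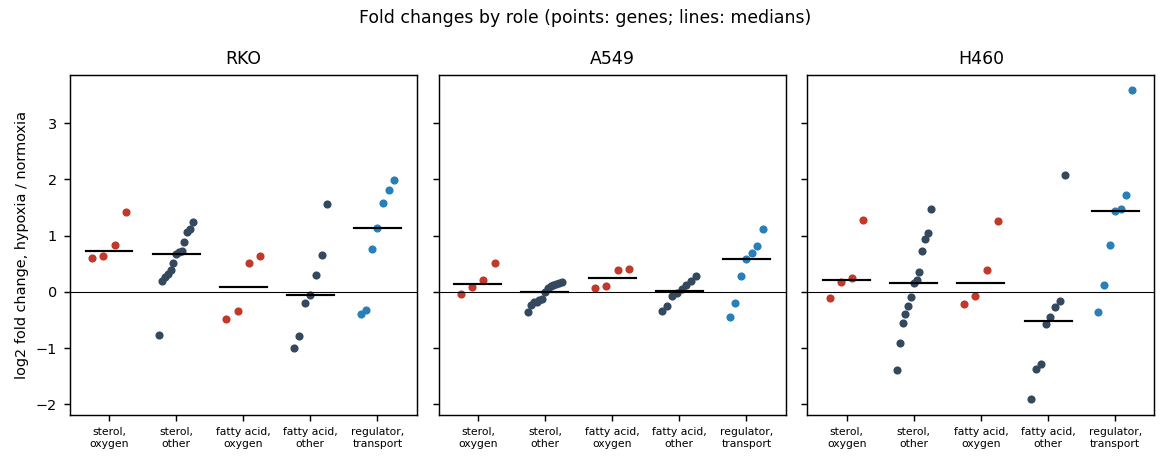
Log2 fold change of each gene (points) by pathway and role in RKO, A549 and H460, with lines at the medians. The regulators and transport genes have the highest median in each panel (1.14, 0.59 and 1.44), and the widest spread among enzymes is that of the fatty acid enzymes that use no oxygen in H460, from -1.91 to 2.08.

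The remaining sterol enzymes rose in part of the pathway. HMGCS1, the cytosolic HMG-CoA synthase at the entry (GRCh37 chr5:43287571-43313614), rose from 143 ± 7.01 to 310 ± 23.2 CPM in RKO (1.12 ± 0.15, adjusted p = 0.000468) and from 46.9 ± 5.90 to 131 ± 2.30 CPM in H460 (1.48 ± 0.10, adjusted p = 1.19e-07; SD of CPM, n = 2). In A549 it was 84.8 ± 21.1 CPM in normoxia and 72.2 ± 14.7 CPM in hypoxia. MVD, which forms isopentenyl pyrophosphate (GRCh37 chr16:88718347-88729495), rose by 1.24 in RKO and 0.93 in H460. LSS, which closes the ring of lanosterol, rose by 0.67 in RKO and 1.04 in H460, and HSD17B7, a sterol ketoreductase whose pseudogene copies may share reads with it, by 0.88 and 0.72. These 4 enzymes sit at the start, the middle and the late part of the pathway. The H460 calls of MVD (0.58) and HSD17B7 (0.37) were lost when scaled by library size alone, and the RKO call of LSS was lost without normoxia replicate 1 (0.47) or hypoxia replicate 2 (0.48).

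IDI1, the isomerase of isopentenyl pyrophosphate, FDFT1, the squalene synthase, and TM7SF2, a sterol reductase, rose in RKO, by 1.07, 0.71 and 0.73, TM7SF2 dropping to 0.44 without hypoxia replicate 2. Their H460 changes were 0.21, 0.36 and -0.55, which passed the adjusted p (0.0610, 0.00254 and 0.0302) but not the fold threshold. For FDFT1 the H460 and RKO changes did not differ by the interaction test (adjusted p = 0.150). PMVK, the phosphomevalonate kinase between MVK and MVD (GRCh37 chr1:154897207-154909484), went the other way, falling from 25.7 ± 1.78 to 15.1 ± 1.76 CPM in RKO (log2 change -0.77 ± 0.19, adjusted p = 0.00926) and from 30.4 ± 1.27 to 16.3 ± 0.41 CPM in H460 (-0.90 ± 0.10, adjusted p = 9.60e-06). EBP, the sterol isomerase (GRCh37 chrX:48380163-48387104), fell in H460, from 89.3 and 89.2 CPM to 30.02 and 38.1 CPM (-1.39 ± 0.11, adjusted p = 4.85e-07), and had overlapping libraries in the other lines. MVK, FDPS, NSDHL and DHCR7 were called in no line, with changes from -0.40 (MVK in H460) to 0.52 (DHCR7 in RKO).

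Of the fatty acid enzymes that use no oxygen, 2 of 7 tested rose and 2 fell in RKO, and 1 of 8 rose and 3 fell in H460. Of all genes, 18.8% were higher and 15.1% lower in RKO, and 24.6% higher and 27.3% lower in H460. With so few enzymes these counts are a description only. ACSS2, which makes acetyl-CoA from acetate (GRCh37 chr20:33462765-33515769), rose from 21.7 ± 2.73 to 63.9 ± 0.77 CPM in RKO (1.56 ± 0.17, adjusted p = 0.000168) and from 30.1 ± 0.65 to 127 ± 8.08 CPM in H460 (2.08 ± 0.09, adjusted p = 5.10e-09). ACLY, which makes acetyl-CoA from citrate, was called in no line (-0.20, 0.27 and -0.46 in RKO, A549 and H460). ACACA, the acetyl-CoA carboxylase that commits carbon to fatty acids (GRCh37 chr17:35441926-35766902), fell from 232 ± 7.15 to 136 ± 1.30 CPM in RKO (-0.78 ± 0.15, adjusted p = 0.00239) and from 150 ± 9.54 to 58.3 ± 4.69 CPM in H460 (-1.37 ± 0.10, adjusted p = 1.45e-07).

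ACACB, the mitochondrial carboxylase, was higher in RKO (0.65 ± 0.21, adjusted p = 0.0308), a call lost without normoxia replicate 1 or 2 at changes of about the same size (0.64 and 0.67, adjusted p = 0.165 and 0.141) and with limma on RPKM + 1 (0.42), and had a change of -0.57 in H460. FASN, the fatty acid synthase (GRCh37 chr17:80036213-80056106), fell in H460, from 594 and 541 CPM to 209 and 255 CPM (-1.29 ± 0.11, adjusted p = 8.30e-07). In the other lines its normoxia replicates differed more than the conditions did, with 594 and 963 CPM in RKO and 727 and 337 CPM in A549. ELOVL6, which elongates palmitate (GRCh37 chr4:110970228-111119820), had the deepest fall of the set, from 60.9 and 60.1 CPM to 13.7 and 18.4 CPM in H460 (-1.91 ± 0.13, adjusted p = 1.03e-07). It also fell in RKO, from 166 and 167 CPM to 71.4 and 94.4 CPM (-1.01 ± 0.17, adjusted p = 0.00130). ELOVL1 and ELOVL5, the elongases of saturated very long chains and of polyunsaturated chains, were called nowhere, and ELOVL5 was nearly silent in RKO (0.25 to 0.55 CPM).

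The regulators and transport genes had the highest median changes of the roles. INSIG2, the sterol-sensing anchor protein of the endoplasmic reticulum (GRCh37 chr2:118846049-118867597; promoter shown above), read 27.8 and 21.2 CPM in RKO normoxia and 109 and 85.2 CPM in hypoxia (1.99 ± 0.20, adjusted p = 0.000105). In H460 it went from 14.8 and 12.4 CPM to 169 and 157 CPM, a 12.02-fold rise (3.59 ± 0.11, adjusted p = 7.96e-10). In A549 it went from 12.9 and 17.3 CPM to 28.1 and 37.7 CPM (1.12 ± 0.24, adjusted p = 0.0694). Both hypoxia libraries exceeded both normoxia libraries in each line. The A549 call was lost under scaling by library size alone (adjusted p = 0.126), at an adjusted p of 0.05, without normoxia replicate 1 (0.93, adjusted p = 0.138) and without hypoxia replicate 2 (0.89, adjusted p = 0.189).

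INSIG1, its homolog and itself a known SREBP target (GRCh37 chr7:155089485-155101945), rose from 128 and 126 CPM to 287 and 271 CPM in RKO (1.14 ± 0.15, adjusted p = 0.000385) and from 48.1 and 45.6 CPM to 160 and 150 CPM in H460 (1.73 ± 0.09, adjusted p = 1.40e-08). In A549 the hypoxia libraries read 76.8 and 78.2 CPM, both above the 60.1 and 27.9 CPM of normoxia. The wide gap within A549 normoxia went with a change of 0.82 ± 0.31 that did not pass (adjusted p = 0.237), and without normoxia replicate 1 it was 1.47 (adjusted p = 0.00507).

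The SREBP genes parted. SREBF2, whose product chiefly drives sterol genes (GRCh37 chr22:42229082-42303312), rose from 287 and 328 CPM to 549.02 and 495 CPM in RKO (0.77 ± 0.16, adjusted p = 0.00407) and from 266 and 230 CPM to 450 and 436 CPM in H460 (0.83 ± 0.10, adjusted p = 1.09e-05; 0.48, under the fold threshold, when scaled by library size alone). In A549 it read 98.3 and 107 CPM in normoxia and 113 and 138 CPM in hypoxia. SREBF1, whose product chiefly drives fatty acid genes (GRCh37 chr17:17714662-17740325), was called in no line. It read 103 and 184 CPM against 104 and 113 CPM in RKO, 325 and 331 against 224 and 260 CPM in A549, and 286 and 245 against 297 and 284 CPM in H460. Its A549 libraries did not overlap, with a change of -0.44 ± 0.17 (adjusted p = 0.256), and in RKO the call turned to lower without normoxia replicate 1 (-0.76, adjusted p = 0.0109).

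STARD4, a carrier that moves cholesterol between membranes (GRCh37 chr5:110834021-110848157), rose from 47.4 ± 0.50 to 167 ± 31.5 CPM in RKO (1.82 ± 0.17, adjusted p = 9.02e-05) and from 112 ± 2.78 to 310 ± 7.59 CPM in H460 (1.47 ± 0.09, adjusted p = 4.30e-08). ABCA1, the exporter that loads cholesterol onto apolipoprotein (GRCh37 chr9:107543283-107690527), rose by 1.57 ± 0.36 in RKO, where it was scarce at 0.96 to 4.23 CPM and where limma on RPKM + 1 gave 0.29, under the fold threshold, and by 1.44 ± 0.13 in H460. In A549, where ABCA1 was abundant at 228 ± 20.5 CPM in normoxia, the change of 0.70 ± 0.19 did not pass the main test (adjusted p = 0.121) and passed with DESeq2 (adjusted p = 0.0323). SCAP, the escort of the SREBPs, was called in no line (-0.32, -0.19 and -0.37).

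**Figure D4:**
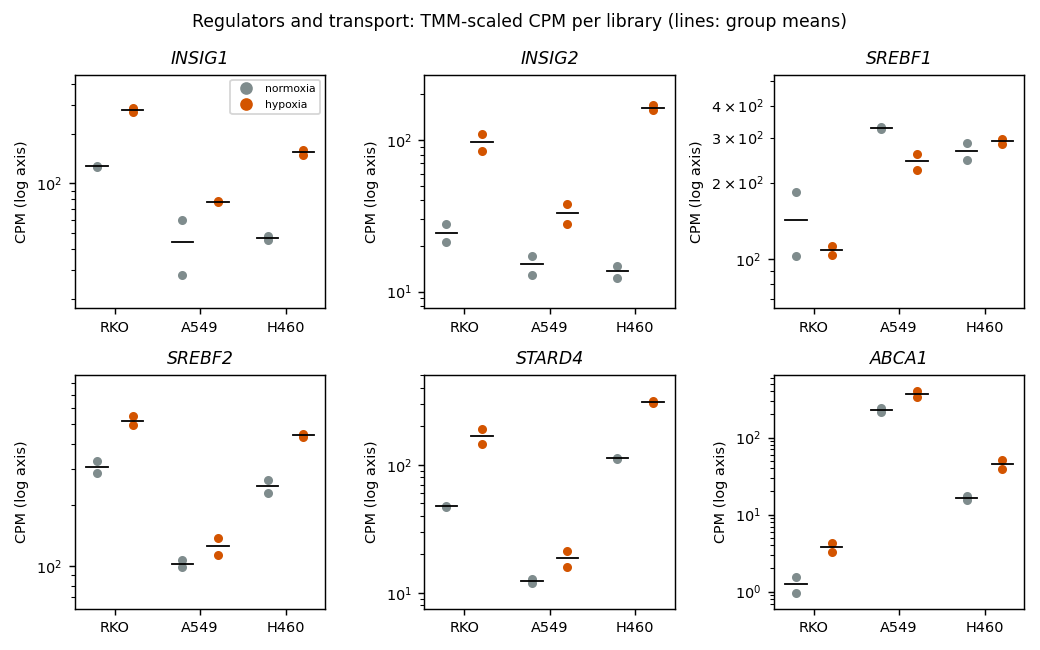
TMM-scaled CPM (log axes, each panel on its own scale) of 6 regulator and transport genes in every library, grey for normoxia and orange for hypoxia, with lines at the means of 2 replicates. INSIG2 is higher in hypoxia in each line, and SREBF1 is the panel in which the conditions overlap in RKO and H460.

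Ratios of RPKM within a library are free of scaling between libraries and allow genes of different length to be compared. The pairs were chosen with the fold changes in view and are given without a test. INSIG2 to INSIG1 went from 0.367 and 0.324 to 1.26 and 1.25 in H460 and from 0.260 and 0.200 to 0.454 and 0.375 in RKO, so that in H460 the less abundant homolog became the more abundant. In A549 the normoxia libraries, at 0.257 and 0.740, enclosed those of hypoxia. SREBF2 to SREBF1 was higher in hypoxia in every line, from 2.41 and 1.54 to 4.57 and 3.78 in RKO, from 0.262 and 0.279 to 0.436 and 0.459 in A549 and from 0.804 and 0.814 to 1.31 and 1.33 in H460. SCD to FASN went from 2.95 and 2.67 to 18.3 and 14.8 in H460. ACSS2 to ACLY went from 0.122 and 0.140 to 0.763 and 0.746 in H460 and from 0.0736 and 0.0599 to 0.225 and 0.226 in RKO, while the A549 libraries overlapped (0.0371 and 0.0410 against 0.0349 and 0.0387).

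**Figure D5:**
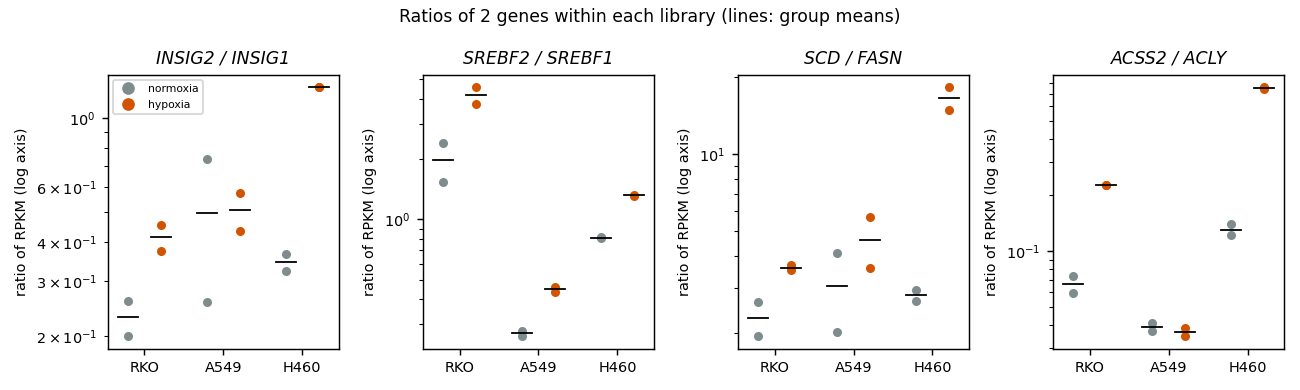
Ratio of the RPKM of 2 genes within each library (log axes), grey for normoxia and orange for hypoxia, with lines at the group means. SREBF2 to SREBF1 separates the conditions in each line, and the SCD to FASN and ACSS2 to ACLY ratios move farthest in H460.

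Summed over genes, the RPKM of the 4 oxygen-using sterol enzymes relative to that of the other sterol enzymes was 0.388 and 0.382 in RKO normoxia and 0.489 and 0.447 in hypoxia. In H460 it was 0.183 and 0.176 against 0.267 and 0.262. There the denominator held FDPS and EBP, whose mean RPKM fell from 173 to 127 and from 87.1 to 26.1. In the numerator MSMO1 rose from 17.1 to 32.4, while other genes of the ratio moved either way, and the part of each was not computed. In A549 the ratio was 0.175 and 0.206 against 0.209 and 0.204, the conditions differing by less than the normoxia replicates. The sum over sterol enzymes relative to that over fatty acid enzymes moved in opposite directions in RKO and H460, from 1.40 and 1.23 to 1.74 and 1.86 in RKO and from 0.816 and 0.902 to 0.606 and 0.630 in H460. In A549 it went from 0.488 and 0.478 to 0.458 and 0.400. These sums weigh abundant genes most, among them SCD, the most abundant gene of the set by RPKM in RKO and H460 normoxia.

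Whether the response to hypoxia differed between lines was tested as an interaction in a joint edgeR fit of all 12 libraries. It passed for 28 of the 36 genes, against 48.8% of all genes. By pairs of lines, 16 genes differed between A549 and RKO (14.6% of all genes), 17 between H460 and RKO (37.6%) and 17 between H460 and A549 (36.0%). INSIG2 responded more strongly in H460 than in A549 by 2.46 on the log2 scale (adjusted p = 0.000109) and than in RKO by 1.55 (adjusted p = 0.00148). ACSS2 and HMGCS1 likewise responded more in H460 than in A549, by 1.88 and 1.71, and more in RKO than in A549, by 1.41 and 1.40. EBP, TM7SF2, FASN and ACACB had lower changes in H460 than in RKO, by -1.69, -1.33, -1.27 and -1.27. The 8 genes that did not pass were FADS1, FADS2, NSDHL, ELOVL1, ELOVL5, INSIG1, SREBF1 and SCAP, with INSIG1 just outside (adjusted p = 0.101). The joint fit shares 1 estimate of the spread, and with it 4 genes rose in A549, INSIG1, STARD4 and ABCA1 besides INSIG2.

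The lines differed before hypoxia. In normoxia 25 of the 36 genes differed between A549 and RKO (60.2% of all genes), 24 between H460 and RKO (61.9%) and 13 between H460 and A549 (52.1%). Against RKO the set thus differed about as often as genes in general, and between the lung lines less often. Most sterol enzymes were lower in A549 and H460 than in RKO. MSMO1 was 3.44-fold lower in A549 and 2.95-fold lower in H460, SQLE 2.77-fold and 3.75-fold, and LSS 3.29-fold and 3.24-fold. The polyunsaturated branch went the other way, with FADS1 645-fold and 387-fold and ELOVL5 525-fold and 351-fold higher in A549 and H460 than in RKO, where both were near the limit of detection, so that the size of these folds is loosely set. ABCA1 was 192-fold higher in A549 than in RKO, STARD4 10.0-fold higher in H460 than in A549, and SREBF1 2.45-fold and 2.20-fold higher in A549 and H460 than in RKO. By RPKM the most abundant genes were SCD in RKO (198 ± 28.9, n = 2) and H460 (213 ± 26.0) and ACLY in A549 (188 ± 17.7), and the scarcest were ELOVL5, SCD5 and ACACB in RKO, H460 and A549, in that order.

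Beyond these genes, 38 other genes of the pathway were counted, in 3 lists of 15 further enzymes, 5 electron donors of the oxygen-using steps and 18 genes of sterol control and traffic. In RKO 5 of 33 tested rose and 2 fell, in A549 1 of 37 rose and 0 fell, and in H460 6 of 36 rose and 13 fell. The shares of all genes were 18.8% higher and 15.1% lower (RKO), 2.22% higher and 0.456% lower (A549) and 24.6% higher and 27.3% lower (H460). The RKO and A549 rises were thus near the background. At an unadjusted p under 0.05, 2 were higher and 1 lower in A549, but the share of all genes at that p was not computed. In H460 the further enzymes had 1 higher and 7 lower of 14, the electron donors 0 higher and 1 lower of 5, and the control genes 5 higher and 5 lower of 17. In RKO these counts were 2 and 0 of 12, 0 and 1 of 5, and 3 and 1 of 16. The A549 call was ELOVL2, an elongase of polyunsaturated chains (0.82 ± 0.20, adjusted p = 0.0939). NPC1, which releases cholesterol from lysosomes, and NR1H3, the sterol receptor LXR alpha, rose most in RKO (1.43 ± 0.17 and 1.07 ± 0.30). CYB5A, the cytochrome that passes electrons to the desaturases, was among the genes that fell there (-0.83 ± 0.20). In H460 FADS3, a relative of the fatty acid desaturases, and NPC2, the partner of NPC1, rose most (1.62 ± 0.09 and 1.17 ± 0.09), and LPCAT3, which places polyunsaturated chains in phospholipids, and SOAT1, which esterifies cholesterol, fell most (-1.90 ± 0.15 and -1.70 ± 0.10).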

How the data were processed

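Strand-specific poly(A)+ libraries were sequenced from a single end. Per the labels, reads were aligned to GRCh37/hg19 with TopHat2 2.0.13 (Bowtie2 2.2.3.0) and counted with HTSeq 0.6.1. The authors deposited raw read counts per gene, which entered all main fits, and RPKM values per gene, which are the counts divided by gene length and library total. RPKM served for ratios within a library, for levels compared between genes and for a limma alternative. The files keep 1 row per symbol, so reads of near-identical copies could be lost or shared upstream.

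The 4 libraries of a line were fitted together, apart from other lines, by the quasi-likelihood F test of edgeR 4.0.16 (R 4.3.3) with TMM factors, on genes over 0.5 CPM in at least 2 libraries, with p values adjusted by Benjamini-Hochberg over all tested genes. Genes were called at an adjusted p under 0.1 and a fold change over 1.5, the thresholds of the study, which used DESeq2. CPM values are TMM-scaled within a line, and errors of log2 fold changes are standard errors. Interaction terms and normoxia contrasts came from a joint fit of all 12 libraries, and interactions were called by adjusted p alone. Replicates are independent biological replicates per the series record.

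Alternatives were leaving out each library, DESeq2 1.42.0, scaling by RLE or by library size alone, no filter or a filter at 1 CPM, other thresholds, the joint fit, a replicate block, and limma 3.58.1 on the log2 of RPKM plus 0.1 or plus 1. The pipeline was tested on simulated data. Promoters came from RefSeq (GRCh38.p14), and gene positions, 1-based on GRCh37, from the annotation that came with the RPKM values. The genes, roles and lists were chosen with earlier results of these data known. All 36 genes are named. Values in every library are given for oxygen-using enzymes, for genes called in all 3 lines and for INSIG1, INSIG2, SREBF1 and SREBF2, and for EBP, FASN and ELOVL6, chosen after their values were seen. Of the other lists, the 2 largest rises and the 2 largest falls per line with a mean of at least 100 counts are named, except for a gene that is not reported here. At 27350424 to 41757584 counted reads per library, the standard errors of log2 fold changes had medians of 0.18 (RKO), 0.22 (A549) and 0.11 (H460).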

Additional observations from a re-analysis of the deposited data

Results flagged for a closer look

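The response to hypoxia differed between lines for 28 of the 36 genes by the interaction test in the joint edgeR fit (adjusted p under 0.1, which 48.8% of all genes met). Differences of log2 fold changes are given for the pair of lines that differed most.

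A549 minus RKO was the widest pair for CYP51A1 -0.69, MSMO1 -1.27, MVD -1.19, IDI1 -0.999, FDPS -0.53, FDFT1 -0.63, HSD17B7 -0.77, DHCR7 -0.93, STARD4 -1.28 and ABCA1 -0.92, all negative, the change in A549 lying below that in RKO.

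H460 minus RKO was the widest pair for SQLE -0.78, SC5D -0.70, SCD5 -0.78, MVK -0.64, TM7SF2 -1.32, EBP -1.69, ACACB -1.27 and FASN -1.27. The differences were negative for each of these genes, and the largest was that of EBP, which fell in H460 and was not called in RKO.

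H460 minus A549 was the widest pair for SCD 0.85, HMGCS1 1.71, PMVK -0.75, LSS 0.87, ACLY -0.73, ACSS2 1.88, ACACA -1.30, ELOVL6 -1.66, INSIG2 2.46 and SREBF2 0.55. The positive values belong to genes higher in H460 hypoxia and the negative values to PMVK, ACLY, ACACA and ELOVL6. With 2 replicates per group no single sample could be screened as an outlier.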

How the results depend on the processing

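DESeq2 and RLE factors changed 1 call among the genes of the set: ABCA1 in A549 passed with DESeq2, making 2 genes higher. Of 1390 values of single genes under alternatives, 1260 kept direction and side of the threshold, 42 newly passed, 25 no longer passed and 63 that were not called changed sign. None of the called genes changed direction.

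Requiring a fold change over 2 left 9 genes higher and 1 lower in RKO and 8 normoxia differences between H460 and A549. Dropping the minimum fold change gave 12 lower in H460. At an adjusted p of 0.05, A549 had 0 higher. A549 had 2 higher without a filter and 4 in the joint fit, and 0 higher, with 0 of the other pathway genes, under library size scaling and limma with either pseudocount.

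Scaling by library size alone gave medians of 0.72 for all genes of the set and 0.70 for oxygen-using enzymes in RKO, and limma gave 0.70 and 0.69 for the latter with pseudocounts of 0.1 and 1. The difference of oxygen-using and other enzymes in RKO was 0.23 in the joint fit and 0.27 with limma and a pseudocount of 1. In H460, library size scaling gave 12 lower, medians of -0.21 (all), -0.14 (oxygen-using) and -0.61 (other enzymes) and 3 other pathway genes higher. The median shift of all tested genes in H460 under that scaling was -0.35, and the shares of all genes called under it were not computed. Limma on RPKM, which is scaled by library size as well, gave 12 and 10 lower with pseudocounts of 0.1 and 1, medians of -0.21 and -0.21 (all), -0.14 and -0.125 (oxygen-using) and -0.61 and -0.58 (other enzymes), and 3 and 3 other pathway genes higher.

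Leaving out each library gave 15 to 21 higher and 3 to 4 lower in RKO, 0 to 3 higher and 0 lower in A549, and 12 higher and 6 lower in H460, with 19 to 28 interactions. The other pathway genes had 5 higher and 2 to 4 lower in RKO, 0 to 2 higher in A549, and 5 to 7 higher and 11 to 14 lower in H460, and the normoxia differences were 23 to 27, 23 to 25 and 13 to 15. Medians over all genes of the set were 0.52 to 0.66 (RKO), -0.058 to 0.26 (A549) and -0.017 to 0.22 (H460), the H460 value being -0.017 without normoxia replicate 2. For oxygen-using enzymes they were 0.54 to 0.67, 0.068 to 0.31 and 0.14 to 0.33, for other enzymes 0.38 to 0.61, -0.15 to 0.24 and -0.36 to -0.18, with A549 at 0.24 without normoxia replicate 1. Their differences were 0.06 to 0.19, 0.071 to 0.25 and 0.31 to 0.56. The cause of these shifts was not tested.

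Replicate numbers are shared between conditions, but each line has only 2 such pairs, and deviations of same-numbered libraries correlated at r = 0.36, 0.37 and 0.15 in RKO, A549 and H460. The replicate block gave 3 genes higher in A549, INSIG1 and ABCA1 besides INSIG2, 19 higher and 3 lower in RKO, and 12 higher and 5 lower in H460. With 2 replicates per group, changes below the fold threshold were not resolved in A549, where the standard errors were largest. Some A549 changes above that threshold were not called in the main fit either (INSIG1 at 0.82, ABCA1 at 0.70 and STARD4 at 0.59).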
